A study of Homo sapiens with 4 samples.

Results

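The STAT and IRF transcription factors and the SOCS inhibitors relay interferon and cytokine signals in liver cells. The set examined comprised STAT2, STAT3, IRF1, IRF2, IRF3, IRF7, IRF9, SOCS1 and SOCS3, and its rows were taken by gene symbol. Of these 9 genes, 8 had a row among the 18806 genes of the expression table, and IRF7 is not analysed here. All 8 passed the filter for testing, a mean of at least 1 TPM over the libraries (TPM, transcript abundance as a share of each library scaled by transcript length), and each stood above 1 TPM in every library. RNA-seq was conducted in Huh7 cells, a line from a human hepatocellular carcinoma, grown from a single clone that carries Cas9 after lentiviral transduction and blasticidin selection. These cells received a lentiviral guide with hygromycin B selection, either a non-targeting guide (sgNS, labelled wild type, 2 libraries) or a guide against the coding region of METTL16 (sgMETTL16, labelled knockdown, 2 libraries). Cas9, the Huh7 clone, the lentiviral vector and both selections are thus common to the groups. All comparisons rest on 1 Cas9 clone and on 2 libraries per group. The authors describe 2 biological replicates per sequenced sample, but neither they nor the labels say that these came from separate cultures. The p-values therefore measure only the spread between these samples.

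STAT proteins are held in the cytoplasm until Janus kinases (JAKs) bound to cytokine receptors phosphorylate them. STAT2 and IRF9 are subunits of the complex ISGF3, which binds interferon-stimulated response elements (ISREs) of antiviral genes, while STAT dimers bind gamma-activated sites (GAS). In hepatocytes STAT3 carries the signal of interleukin 6 and related cytokines through the receptor gp130 to acute-phase genes. IRF3 is switched on by kinases downstream of viral RNA and DNA sensors, IRF1 activates and IRF2 often restrains genes with ISRE-like sites, and SOCS1 and SOCS3 are induced inhibitors that shut off JAK activity.

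The promoter sequences below are shown because several of these regulators are themselves known to be induced by STAT and IRF factors, and these 3 genes held a match. The 250 bases before the transcription start were searched on both strands for the ISRE core GAAANNGAAA and the GAS motif TTCNNNGAA. Promoters came from RefSeq (GRCh38.p14), in which 6 of the 9 genes were matched. Of 27305 promoters in that table, 3.07% held the ISRE core and 6.78% held GAS. The IRF1 promoter held GAS between -124 and -116 relative to its start, shown in capitals (chr5:132490794-132490933, minus strand, printed 5′ to 3′).
IRF1: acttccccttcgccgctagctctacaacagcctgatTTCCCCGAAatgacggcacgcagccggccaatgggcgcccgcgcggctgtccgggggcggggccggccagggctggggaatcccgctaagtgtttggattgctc
The SOCS1 promoter held the ISRE core between -113 and -104 (chr16:11256225-11256364, minus strand).
SOCS1: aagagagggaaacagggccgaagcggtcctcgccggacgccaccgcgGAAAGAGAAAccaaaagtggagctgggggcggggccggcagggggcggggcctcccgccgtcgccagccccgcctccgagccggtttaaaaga
The IRF9 promoter held GAS between -63 and -55 (chr14:24161192-24161220, plus strand).
IRF9: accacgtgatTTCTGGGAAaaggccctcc
No match to these letters was found in the windows of STAT2 and STAT3, and those of IRF2, IRF3 and SOCS3 were not used here. A match describes the sequence only, since no binding was measured in these libraries.

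METTL16, an RNA methyltransferase and the target of the guide, was listed at 26.3 and 25.1 TPM in the sgNS libraries and at 17.6 and 18.8 TPM in the sgMETTL16 libraries. Both sgMETTL16 libraries lay below both sgNS libraries. Its log2 fold change was -0.50 (SE 0.062, adjusted p = 2.4e-05). An edit made by Cas9 can leave an mRNA in place, so this level does not give the level of METTL16 protein, which was not measured here. Fold changes and p-values here come from limma on log2(TPM + 0.1), with Benjamini-Hochberg adjustment over the 11971 genes tested, and a gene was called at an adjusted p under 0.05. On this scale low values shrink the change of a gene. Library depth is unknown, since TPM values carry no counts. Over all genes tested the log2 fold change had a median of 0.16, which moved to -0.033 after median-ratio scaling and to 0.0097 after quantile normalization. Changes of the regulators are therefore also given relative to the median gene. All 10 hepatocyte and hepatoma markers had a mean of 1 TPM or more, as did 3 of 7 leukocyte markers. Of these, LYZ was at 1510 and 1553 TPM in sgNS against 909 and 924 TPM in sgMETTL16, CD68 was at 3.4 and 2.72 TPM against 8.86 and 8.57 TPM, and CD14 was at 1.21 and 0.91 TPM against 1.61 and 1.66 TPM. PTPRC, the defining marker, and CD3E did not exceed 0.48 TPM, NKG7 did not exceed 0.62 TPM and MS4A1 was listed at 0. The summed leukocyte markers were at 1516 and 1558 TPM in sgNS against 921 and 934 TPM in sgMETTL16. LYZ made up nearly all of this sum, and the part of these markers in the results was not tested. In bulk RNA, fewer cells with a transcript and less of it per cell cannot be told apart.

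SOCS3, IRF1, IRF2, STAT3 and IRF9 rose in sgMETTL16, STAT2 fell, and SOCS1 and IRF3 did not pass the test. SOCS3 rose by 2.81 on the log2 scale and IRF1 by 1.77, and the other 3 rose by 0.64 to 0.80. Thus 5 of the 8 regulators were called higher and 1 lower, where 50.1% of all genes tested were called higher, 25.6% lower and 75.7% in either direction. These shares of the regulators are near those of all genes, so the counts set them little apart. At an unadjusted p under 0.01 with a log2 fold change of 1 or more in either direction, IRF1 and SOCS3 were higher, as were 7.69% of all genes, and none of the 8 was lower, as were 3.75% of all genes. At an unadjusted p under 0.05 from limma without a fold threshold, STAT2 was lower. The sgNS and sgMETTL16 libraries did not overlap for 7 of the 8 regulators, against 87.4% of all genes.

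**Figure D1:**
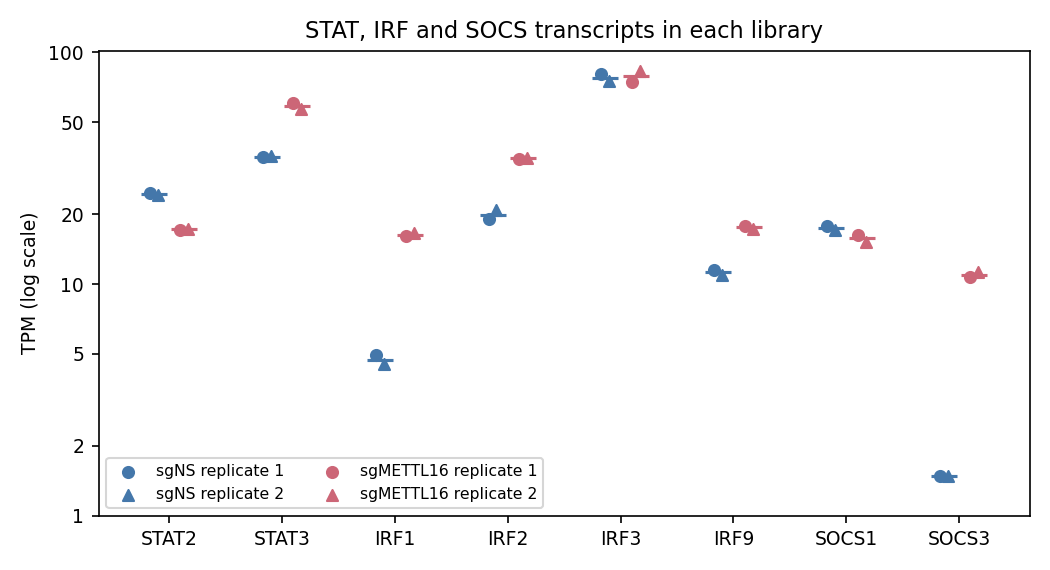
TPM on a log axis for the 8 regulators in the 4 libraries, with points for single libraries and short lines for group means. SOCS3 and IRF1 show the widest gaps between groups, STAT2 and SOCS1 are lower in both sgMETTL16 libraries, and the IRF3 points of the groups overlap.

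Among the STAT factors, STAT2 and STAT3 went in opposite directions. STAT2, the ISGF3 subunit with the activation domain, lies on chromosome 12 from 56341597 to 56360203 and was listed at 24.6 and 24.2 TPM in sgNS against 17.2 and 17.3 TPM in sgMETTL16. Both sgMETTL16 libraries lay below both sgNS libraries. Its log2 fold change was -0.50 (SE 0.058, adjusted p = 1.5e-05), or -0.66 relative to the median gene. STAT3, the main carrier of gp130 signals in the liver, lies on chromosome 17 from 42313324 to 42388540. It stood at 35.2 and 35.8 TPM in sgNS against 60.4 and 56.8 TPM in sgMETTL16, a gain of 1.65-fold in the mean. Its log2 fold change was 0.72 (SE 0.050, adjusted p = 2.7e-07), or 0.56 relative to the median gene, and the groups did not overlap. The direction and the call of both genes were the same under each alternative tried. Among the log2 fold changes of all genes tested, STAT2 lay at percentile 11.6 and STAT3 at percentile 85.8.

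IRF1, IRF2 and IRF9 rose to different extents, whereas IRF3 did not pass the test. IRF1, a transcription factor induced by interferon gamma whose promoter holds the GAS letters printed above, is annotated on chromosome 5 from 132440440 to 132508719. It stood at 4.92 and 4.52 TPM in sgNS against 16.05 and 16.64 TPM in sgMETTL16, so every sgMETTL16 value exceeded 3 times the sgNS values. The log2 fold change of IRF1 was 1.77 (SE 0.084, adjusted p = 1.4e-08), or 1.61 relative to the median gene, at percentile 97.9 of all genes tested. IRF1 overlaps on the opposite strand with the long noncoding gene IRF1-AS1. All 68280 bases annotated for IRF1 also lie inside a protein-coding gene model on that opposite strand. Neither of these overlapping genes is analysed here. IRF2, which competes with IRF1 for the same sites, lies on chromosome 4 from 184385702 to 184474558. It stood at 19.0 and 20.9 TPM in sgNS against 34.8 and 34.9 TPM in sgMETTL16. Both sgMETTL16 libraries were higher, with a log2 fold change of 0.80 (SE 0.061, adjusted p = 5.2e-07), or 0.64 relative to the median gene.

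IRF9, the DNA-binding subunit of ISGF3, lies on chromosome 14 from 24161234 to 24168043 and was listed at 11.53 and 10.96 TPM in sgNS against 17.8 and 17.4 TPM in sgMETTL16. It rose by 0.64 on the log2 scale (SE 0.068, adjusted p = 7.5e-06), or by 0.48 relative to the median gene, and the groups did not overlap. The annotation places another gene model over 5219 bases of IRF9 on the same strand, between which reads could be split. IRF3, the factor activated downstream of nucleic acid sensors, lies on chromosome 19 from 49659569 to 49665875. It stood at 80.7 and 75.2 TPM in sgNS against 74.4 and 83.2 TPM in sgMETTL16, and the groups overlapped. Its log2 fold change of 0.014 (SE 0.058, adjusted p = 0.83, 95% interval -0.11 to 0.14) turned to -0.18 after median-ratio scaling (adjusted p = 0.017) and to -0.12 after quantile normalization (adjusted p = 0.10). Relative to the median gene, IRF3 was at -0.15. The direction of IRF3 also turned without sgNS replicate 2, to -0.037, and without sgMETTL16 replicate 2, to -0.066. IRF3 shares 734 bases with BCL2L12 on the opposite strand, which fell by 0.30 on the log2 scale (adjusted p = 4.0e-04).

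Of the SOCS inhibitors, SOCS3 rose and SOCS1 did not pass the test. SOCS3, the inhibitor of gp130 signalling induced by STAT3, lies on chromosome 17 from 78356778 to 78360077. It stood at 1.49 and 1.48 TPM in sgNS against 10.7 and 11.3 TPM in sgMETTL16, a mean 7.40 times as high. Its log2 fold change was 2.81 (SE 0.11, adjusted p = 4.0e-09), or 2.64 relative to the median gene, at percentile 99.2 of all genes tested. SOCS1, the inhibitor of interferon receptor signalling whose promoter holds the ISRE core printed above, lies on chromosome 16 from 11254417 to 11256204. It stood at 17.8 and 17.2 TPM in sgNS against 16.4 and 15.2 TPM in sgMETTL16. Both sgMETTL16 libraries lay below both sgNS libraries, but the log2 fold change of -0.15 (SE 0.067, 95% interval -0.29 to 0.0016) had an adjusted p of 0.067. Relative to the median gene it was -0.31. After median-ratio scaling the log2 fold change of SOCS1 was -0.34 (adjusted p = 8.2e-04), and after quantile normalization it was -0.34 (adjusted p = 0.0011), both called lower. All 1788 bases of SOCS1 lie inside RMI2 on the opposite strand. RMI2 was listed at 48.3 and 48.6 TPM in sgNS against 22.3 and 20.5 TPM in sgMETTL16 (log2 fold change -1.18, adjusted p = 1.6e-08), and its part in the SOCS1 values was not tested.

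**Figure D2:**
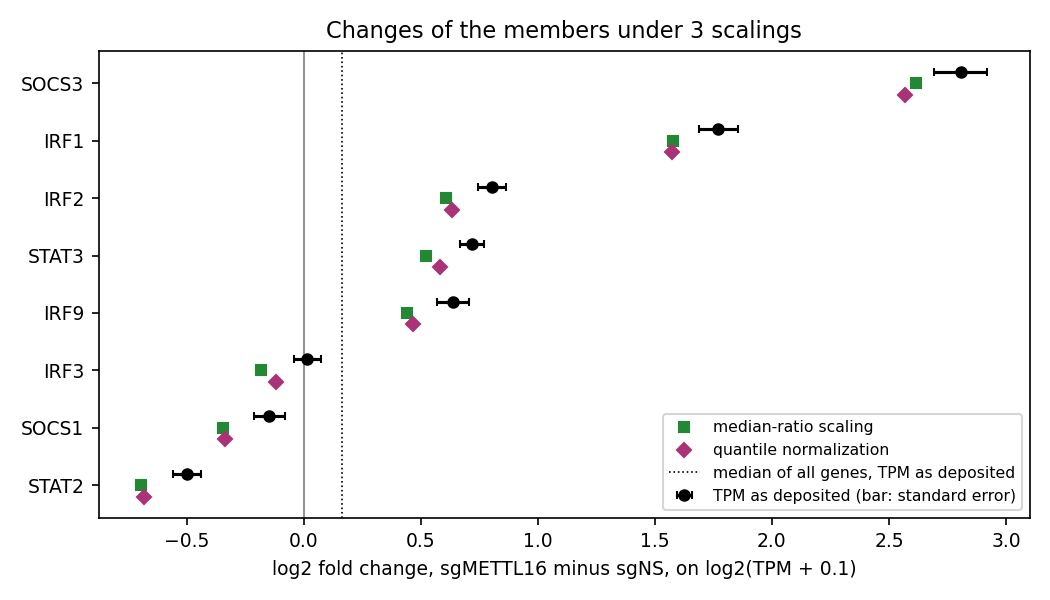
Log2 fold change of each regulator, sgMETTL16 minus sgNS, on log2(TPM + 0.1), with TPM as deposited (circles, bars are standard errors), after median-ratio scaling (squares) and after quantile normalization (diamonds). The dotted line is the median of all genes, 0.16, and IRF3 changes side between the scalings while the other 7 keep theirs.

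The order of the regulators by level changed between the groups. TPM is scaled by transcript length, so levels may be compared between genes. In sgNS the mean TPM fell from IRF3 (77.9) through STAT3 (35.5), STAT2 (24.4), IRF2 (19.9), SOCS1 (17.5), IRF9 (11.2) and IRF1 (4.72) to SOCS3 (1.49), and the libraries of all neighbours in this order were apart. In sgMETTL16 the order was IRF3 (78.8), STAT3 (58.6), IRF2 (34.8), IRF9 (17.6), STAT2 (17.3), IRF1 (16.3), SOCS1 (15.8) and SOCS3 (10.995). STAT2 went from the third to the fifth place. IRF1 and SOCS1 overlapped there, and IRF9 and STAT2 differed by only 1.02-fold. The summed level of the 8 regulators was 195 and 190 TPM in sgNS and 248 and 253 TPM in sgMETTL16.

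Ratios between functional partners were computed within each library, where scaling of the whole library has next to no effect. STAT2 exceeded IRF9, its partner in ISGF3, 2.13 and 2.20 times in sgNS, and the ratio was 0.97 and 1.00 in sgMETTL16. The log2 ratio thus differed by -1.14. IRF1 over IRF2, an activator over its competitor, was 0.26 and 0.22 in sgNS and 0.46 and 0.48 in sgMETTL16, a log2 difference of 0.97. STAT2 over STAT3 was 0.70 and 0.68 in sgNS and 0.29 and 0.31 in sgMETTL16, a log2 difference of -1.22. The largest difference of the 4 ratios was that of SOCS3 over SOCS1, from 0.089 and 0.091 to 0.66 and 0.74, a log2 difference of 2.95. The groups did not overlap in any of the 4 ratios. The exact two-sided permutation test gave p = 0.33 for each ratio, before and after adjustment over the 4, which is the smallest p that 2 libraries against 2 allow.

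**Figure D3:**
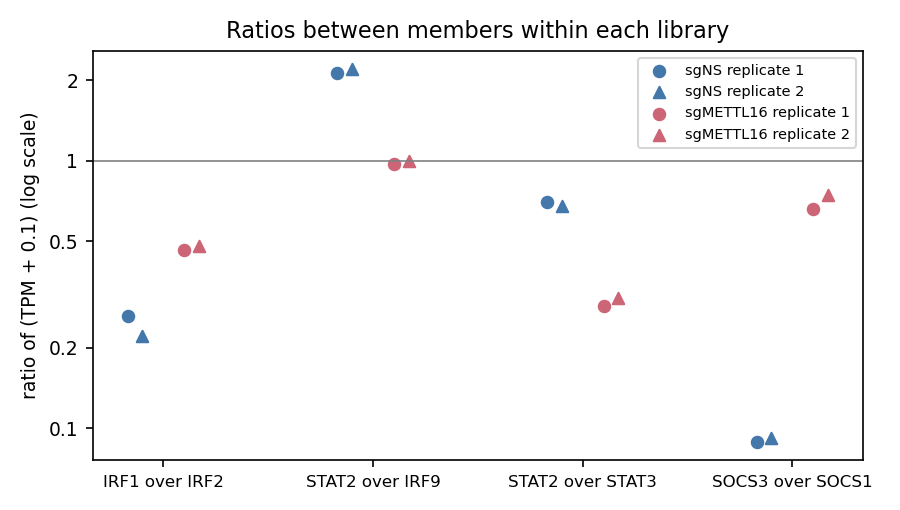
Ratios of (TPM + 0.1) between pairs of regulators within each library, on a log axis with a line at equal levels. STAT2 over IRF9 went from above 2 in sgNS to about 1 in sgMETTL16, and SOCS3 over SOCS1 from 0.089 and 0.091 to 0.66 and 0.74.

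The other members of the families were given by a fixed list. Of the other STAT genes reported, STAT5A rose and STAT5B and STAT6 fell. These 3 were all that was tested, where 50.1% of all genes were higher and 25.6% lower. STAT6, which serves interleukin 4, was listed at 12.7 and 10.2 TPM in sgNS against 7.04 and 6.05 TPM in sgMETTL16 (log2 fold change -0.79, adjusted p = 7.7e-05). STAT5B fell by 0.49 on the log2 scale. STAT5A rose by 0.63 (adjusted p = 0.0053), and without sgMETTL16 replicate 2 its value of 0.51 missed the threshold (adjusted p = 0.073). The STAT5A call was also lost after quantile normalization (0.38, adjusted p = 0.065) and without moderation (adjusted p = 0.15). STAT4 was listed at no more than 0.94 TPM and was not tested.

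In the IRF family, IRF4, IRF5 and IRF8 were under 1.1 TPM in every library and were not tested. Listed with the family, though not IRF factors themselves, were the IRF2 binding proteins IRF2BP1, IRF2BP2 and IRF2BPL. These corepressors were tested, and IRF2BP2 fell by 0.40 on the log2 scale (adjusted p = 8.5e-06). IRF2BP1 had a log2 fold change of 0.051 and IRF2BPL of 0.072, and both turned negative after median-ratio scaling (-0.15 and -0.12) and after quantile normalization (-0.13 and -0.12). Without sgNS replicate 1 both passed the threshold as higher, with 0.17 for IRF2BP1 and 0.20 for IRF2BPL (adjusted p = 0.029 for each). Without sgNS replicate 2 they were at -0.067 and -0.057. None of the 3 was called higher with all libraries, nor at an unadjusted p under 0.05 from limma. Higher calls made up 50.1% of all genes tested and lower calls 25.6%.

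Of the other SOCS genes, 5 were tested, and SOCS2, SOCS4 and SOCS6 rose. Beside these 3 of 5, 50.1% of all genes tested were higher and 25.6% lower. SOCS4, the most abundant of the 3, was listed at 20.5 and 21.4 TPM in sgNS against 33.7 and 32.7 TPM in sgMETTL16 (log2 fold change 0.66, adjusted p = 1.1e-06). SOCS2, the inhibitor of growth hormone signalling, rose by 0.80 (adjusted p = 0.0048), and its value of 0.65 without sgMETTL16 replicate 1 missed the threshold (adjusted p = 0.059). The SOCS2 call was also lost after quantile normalization (0.46, adjusted p = 0.063) and without moderation (adjusted p = 0.12). SOCS6 rose by 0.21 (adjusted p = 0.038), a call lost after either rescaling (0.012 and 0.039) and without sgNS replicate 2 (0.16), sgMETTL16 replicate 1 (0.16) or sgMETTL16 replicate 2 (0.25). SOCS5 and CISH had log2 fold changes of -0.0088 and -0.012 and were not called. SOCS5 passed as lower at -0.20 after median-ratio scaling and at -0.19 after quantile normalization, and it turned positive without sgNS replicate 2 (0.037) or sgMETTL16 replicate 1 (0.011), as CISH did without sgMETTL16 replicate 1 (0.12). The median of the 5 genes was 0.21, beside 0.16 over all genes. None was lower with all libraries, nor at an unadjusted p under 0.05 from limma. SOCS7 is not analysed here.

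Upstream, LIF and CTF1 rose among the cytokine ligands and IL27 and CLCF1 fell. Of 20 interferon and gp130 ligands, 10 were listed at 0 in every library, among them IFNA1, IFNB1, IFNG and IFNL1, and IL6 was listed at 0 in 3 libraries and at 0.07 TPM in the fourth. LIF, a gp130 cytokine that activates STAT3, was listed at 3.94 and 3.10 TPM in sgNS against 26.6 and 26.3 TPM in sgMETTL16. LIF rose by 2.88 on the log2 scale (adjusted p = 2.0e-09). CTF1, another gp130 ligand, which passed the filter only through sgMETTL16, rose by 1.50 from 0.42 and 0.70 TPM to 1.69 and 1.75 TPM, and CLCF1 fell by 0.60. IL27, which passed the filter only through sgNS, was at 1.52 and 1.37 TPM there and at 1.11 and 0.38 TPM in sgMETTL16. IL27 fell by 1.02 (adjusted p = 0.028). That call of IL27 was lost without sgNS replicate 1 (-0.95), sgNS replicate 2 (-1.09) or sgMETTL16 replicate 2 (-0.35). The 4 ligands tested had a median of 0.45, beside 0.16 over all genes. Of these ligands 2 were higher and 2 lower, where 50.1% of all genes were higher and 25.6% lower.

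Of 17 receptor and JAK genes, 16 were tested, of which 11 rose and 3 fell, and the median of the list was 0.48. Over all genes tested, 50.1% were higher and 25.6% lower, with a median of 0.16. JAK2 rose by 1.10 from 3.50 and 4.29 TPM to 8.23 and 8.64 TPM, OSMR, the oncostatin M receptor that pairs with gp130, rose by 1.06, and IL22RA1 by 0.83. TYK2, the kinase of the type I interferon receptor, fell by 0.29 and IFNGR2 by 0.25. IL11RA fell by 0.92 (adjusted p = 0.030). IFNGR2 missed the threshold without sgMETTL16 replicate 1 (-0.20), and IL11RA without sgNS replicate 1 (-0.75), sgNS replicate 2 (-1.10) or sgMETTL16 replicate 1 (-0.28). After either rescaling 11 of the 16 were higher and 5 lower. Of all 11971 genes, 4046 were higher and 4651 lower after median-ratio scaling, and 4420 and 4248 after quantile normalization.

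Sensors, adaptors and kinases upstream of IRF3 and IRF7 were higher in 13 and lower in 2 of 16 genes tested, with a median of 0.72. Shares over all genes tested were 50.1% higher and 25.6% lower, and their median was 0.16. Of the 16, 4 stood below 1 TPM in a group, and among the other 12, 9 were higher and 2 lower with a median of 0.67. IFIH1, the RNA sensor MDA5, was listed at 0.35 and 0.36 TPM in sgNS against 2.90 and 2.80 TPM in sgMETTL16 (log2 fold change 2.70, adjusted p = 1.1e-06). TLR3, the endosomal receptor for double-stranded RNA, was at 0.34 and 0.60 TPM against 2.64 and 2.29 TPM. IFIH1 and TLR3 passed the filter only through sgMETTL16. The adaptor MYD88 rose by 1.46, from 15.9 and 15.4 TPM to 44.1 and 42.1 TPM. IRAK1, a kinase that acts with MYD88, fell by 0.47, and TANK, a scaffold of the IRF3 kinases, fell by 0.21.

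Other brakes on JAK-STAT signalling were higher in 8 and lower in 2 of 11 genes tested, with a median of 0.28. Over all genes tested, 50.1% were higher and 25.6% lower, with a median of 0.16. The counts of these brakes moved to 5 higher and 3 lower after median-ratio scaling. There 4046 of all 11971 genes were higher and 4651 lower. After quantile normalization 6 of the brakes were higher and 3 lower, beside 4420 and 4248 of all genes. The adaptor SH2B3 rose by 0.95, the phosphatases PTPN6 and PTPN2 by 0.94 and 0.75. PIAS3, which inhibits DNA binding of STAT3, was listed at 29.0 and 28.6 TPM in sgNS against 14.0 TPM in both sgMETTL16 libraries. PIAS3 fell by 1.04 on the log2 scale (adjusted p = 5.1e-08). USP18, which blocks the type I interferon receptor, fell by 0.32.

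Known targets were listed for 3 arms of the pathway, and differences between these lists were not tested. Of 36 antiviral genes known as targets of ISGF3, 21 were tested, of which 14 were higher and 3 lower, with a median of 0.47. Of all genes tested, 50.1% were higher and 25.6% lower, with a median of 0.16. After median-ratio scaling 13 of the 21 were higher and 5 lower, beside 4046 and 4651 of all 11971 genes. After quantile normalization 13 were higher and 4 lower, beside 4420 and 4248 of all genes. IFITM3, which restricts viral entry, rose by 1.73, from 146 and 149 TPM to 492 and 488 TPM. LGALS3BP, at 0.41 and 0.30 TPM in sgNS against 2.01 and 1.72 TPM in sgMETTL16, and HERC6, at 0.44 and 0.31 TPM against 2.12 and 1.62 TPM, passed the filter on low values only through sgMETTL16. IFIT1, a sensor of viral RNA caps, was listed at 1.99 and 2.16 TPM in sgNS against 0.87 and 0.89 TPM in sgMETTL16, and fell by 1.15 (adjusted p = 3.2e-04). IFIT1 and IFI35 stood below 1 TPM in sgMETTL16 and passed the filter only through sgNS. IFI35 fell by 0.93 and IFIT5 by 0.30. Those last calls were lost for IFI35 without sgNS replicate 2 (-0.77) and for IFIT5 without sgNS replicate 1 (-0.25), sgMETTL16 replicate 1 (-0.33) or sgMETTL16 replicate 2 (-0.27). Among the 17 genes at 1 TPM or more in both groups, 12 were higher and 1 lower with a median of 0.47.

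Of 40 genes known as targets of IRF1 and interferon gamma, 25 were tested, of which 22 were higher, with a median of 1.24. Over all genes tested, 50.1% were higher and 25.6% lower, with a median of 0.16. Among the 21 targets at 1 TPM or more in both groups, 18 were higher with a median of 0.88. None was lower in the deposited TPM, nor at an unadjusted p under 0.05 from limma. After median-ratio scaling 4 of the 25 were lower, beside 4651 of all 11971 genes. After quantile normalization 2 were lower, beside 4248 of all genes. CXCL10, a chemokine for T cells, was listed at 1.93 and 1.60 TPM in sgNS against 40.9 and 42.3 TPM in sgMETTL16 (log2 fold change 4.49, adjusted p = 4.6e-11). TAP1, the peptide transporter of antigen presentation, rose by 3.58 and the guanylate-binding protein GBP1 by 3.44. GBP1 belongs to a family of similar genes between which reads could be split.

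Of 34 liver targets of STAT3, 33 were tested, of which 27 were higher and 1 lower, with a median of 0.76. Over all genes tested, 50.1% were higher and 25.6% lower, with a median of 0.16. After median-ratio scaling 26 of the 33 targets were higher and 4 lower, beside 4046 and 4651 of all 11971 genes. After quantile normalization 27 were higher and 3 lower, beside 4420 and 4248 of all genes. Among the 30 at 1 TPM or more in both groups, 24 were higher and 1 lower with a median of 0.69. SAA4, SAA1 and SAA2 had the largest fold changes of the list. All of them stood below 1 TPM in sgNS and passed the filter only through sgMETTL16. SAA4 was listed at 0.10 and 0.29 TPM in sgNS against 52.3 and 61.2 TPM in sgMETTL16, SAA1 at 0 and 0.26 TPM against 17.3 and 16.3 TPM, and SAA2 at 0.14 and 0.07 TPM against 5.35 and 5.63 TPM. These genes are similar in sequence, and reads could be split between them. CCND1, a cell cycle gene, fell by 0.25. Some of these genes are targets of other factors as well, and the lists were written with earlier results known, so their counts do not show which factor acted.

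**Figure D4:**
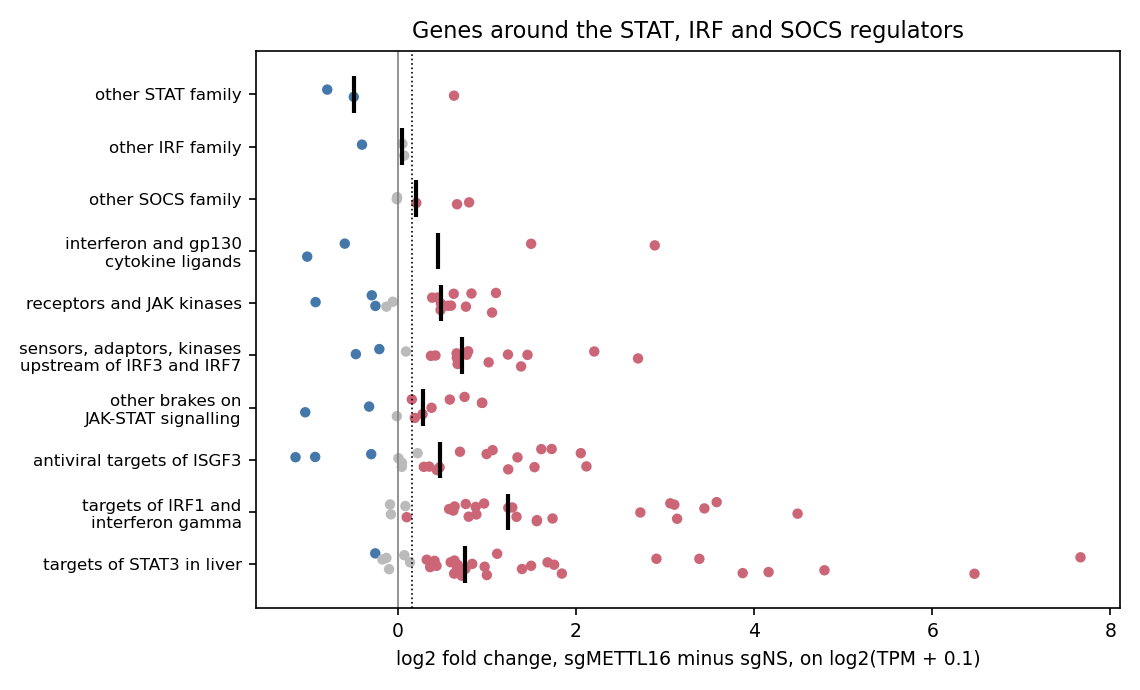
Log2 fold change, sgMETTL16 minus sgNS, of each tested gene in 10 lists around the regulators, coloured red for higher, blue for lower and grey for not called, with a black bar at the median of the list. The dotted line is the median of all genes, 0.16. List medians include genes below 1 TPM in sgNS, and among genes at 1 TPM or more in both groups the median is 0.88 for targets of IRF1 and interferon gamma and 0.69 for liver targets of STAT3.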

How the data were processed

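RNA-seq libraries of 4 Huh7 samples were compared. The labels mention ribosomal RNA depletion as well as a stranded mRNA kit. In the authors' pipeline Cutadapt trimmed the reads, STAR aligned them to GRCh38 and RSEM gave gene values. Versions, annotation and strand setting are not given in the sources used here. The authors deposited 1 table of TPM per gene symbol and library. RPKM is the name used in the methods, yet every library adds up to 1000000, as TPM does. TPM is a share of each library, so abundant genes move all others, and without counts no counting interval or count test was possible.

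Columns were matched to samples by name, and no column of values was left unused. log2(TPM + 0.1) of 11971 genes (mean TPM of at least 1) was compared, sgMETTL16 minus sgNS, by limma 3.58.1 in R 4.3.3 (lmFit, eBayes with trend). The procedure was also run on simulated data in which far fewer genes changed than were called here. That simulation does not cover changes as widespread as these. Ratios were compared by exact permutation with Python 3.11.15. Alternatives were pseudocounts of 1 and 0.01, all genes above 0, a mean of at least 5 TPM, median-ratio scaling, quantile normalization, a replicate block, eBayes without trend, an unmoderated model and each library left out. Genes named are all regulators, METTL16, the other genes listed with the families and, per list, up to 3 called genes per direction, ranked by size of change. The members and lists were chosen with earlier results of these data known. Positions are from GENCODE release 44 (GRCh38) and promoters from RefSeq (GRCh38.p14). Some genes and sequences of the families are not reported here.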

Additional observations from a re-analysis of the deposited data

How the results depend on the processing

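Leaving out single libraries, other pseudocounts, filters, moderation and the replicate block changed no call of the 8 regulators. The deviations of same-numbered libraries correlated at -0.044 across genes. With 2 libraries per group both replicate numbers give this same value. It cannot decide whether the replicate numbers pair the samples. With the replicate block, which leaves 1 residual degree of freedom, 6048 genes were higher and 3112 lower, beside 5999 and 3065 without it. TPM as deposited made 66.2% of all calls higher, against 46.5% after median-ratio scaling (4046 higher, 4651 lower) and 51.0% after quantile normalization (4420 higher, 4248 lower). These rescalings made 3 and 2 regulators lower in place of 1, with IRF3 at -0.18 and -0.12 and SOCS1 at -0.34 under both. Without single libraries IRF3 ranged from -0.066 to 0.095. Among the genes listed with the families, those that changed sign after median-ratio scaling and quantile normalization were IRF2BP1 (-0.15 and -0.13) and IRF2BPL (-0.12 for each). Without single libraries the values ranged from -0.067 to 0.17 for IRF2BP1, -0.057 to 0.20 for IRF2BPL, -0.055 to 0.037 for SOCS5 and -0.14 to 0.12 for CISH. List genes called lower numbered 16, but 28 after median-ratio scaling and 7 without moderation, where 1949 of all genes were lower. Without moderation the calls of STAT5A, STAT6, SOCS2, SOCS6, CTF1, IL27, IL11RA, IFNGR2, TYK2, IRAK1, TANK, IFI35 and IFIT5 were lost, among all genes above 0 those of SOCS6, IL27, IL11RA and IFIT5, and without trend those of IL27 and IL11RA. Past the p and fold thresholds 920 genes were higher, but 1390 among all genes above 0, 575 at a mean of at least 5 TPM, where fewer genes are tested, and 582 after quantile normalization. Lower past both thresholds were 449, but 695 after median-ratio scaling and 692 after quantile normalization. The cause of the changes under rescaling was not tested. The ratio of IRF7 to IRF3 was planned but not analysed here. With 2 libraries per group no single library could be tested as an outlier, and the unknown depth limits what low genes can show.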
